A study of Gallus gallus with 12 samples.

Results

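The genes described here are 9 genes of the amino acid stress response: the transcription factors ATF4, ATF3 and DDIT3, the regulators TRIB3 and SESN2, and the enzymes ASNS, PSAT1, PHGDH and CHAC1. They were found by symbol among the 21350 features that each of the 12 count files lists. All 9 were among the 18979 features that passed the filter on low counts. The symbols DDIT3 and TRIB3 were not in the RefSeq gene table used for names, so the identity of these 2 features rests on the names in the count files alone. The 9 genes were selected on their measured levels in these libraries, which were already known. Their levels and fold changes are therefore given as a description without a p-value, and tests are kept for other genes of the same and linked pathways.

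When amino acids run short or misfolded protein collects in the endoplasmic reticulum, kinases phosphorylate the translation initiation factor eIF2 on its alpha subunit. General translation then falls while the ATF4 mRNA is translated better, and ATF4 switches on genes for amino acid synthesis, amino acid uptake and tRNA charging, a programme called the integrated stress response. In bone and cartilage cells of mammals ATF4 is also known for its part in differentiation and matrix secretion, which consumes much glycine and proline.

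The RNA came from limb buds of chick embryos (breed Lohmann Selected Leghorn) at embryonic day 4.5, from which mesenchymal cells were isolated and grown for 5 days as dense droplets. Before seeding, the cells were infected with RCAS-BP(A), a replication-competent avian retrovirus, so the Control cells carry the vector too. The condition labels are RCAS-BP(A)-empty for Control, and RCAS-BP(A) with an insert named for OSR1, OSR2, EGR1, KLF2 or KLF4, transcription factors that the study associates with connective tissue. Each of the 6 groups had 2 libraries, each RNA extract combined 6 cultures, and the labels do not say whether the replicates came from separate embryos or infections, so every p-value measures only the spread between these libraries. The species of the inserts is not given, and the vector drives the insert in every infected cell type.

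Control libraries held 51233721 and 59297870 counts, and the 10 factor libraries 74139243 to 106079374. Retroviral entries took 3.439% to 3.468% of the counts in Control and 0.7655% to 1.909% in the factor libraries. They were sought by the names gag, pol and env and by that of an endogenous ERVK element. Vector and endogenous sequences are not told apart there, so the share is not a measure of the vector alone. Of 10 cartilage markers fixed as a list, all had counts, and their summed level, given as CPM (counts scaled to library size), was 16190 to 17310 CPM with the empty vector. Close to this were the EGR1 libraries at 15840 to 19160 CPM, with KLF4 at 11810 to 13350 CPM and KLF2 at 11390 to 13590 CPM. The sums were lowest with OSR1 at 4639 to 5526 CPM and OSR2 at 3382 to 3561 CPM. All 8 limb mesenchyme markers had counts, with sums of 7320 to 7905 CPM in Control and 10290 to 14240 CPM in the factor libraries. The labelled cell type thus showed its markers, beside cartilage and, at 478 to 862.8 CPM, skeletal muscle. The summed smooth muscle markers ran from 964.2 to 1100 CPM in Control and from 1703 to 3123 CPM in the factor libraries. Macrophage markers summed to 36.44 to 45.19 CPM over all 12 libraries. Epidermis markers summed to 85.07 to 92.72 CPM in Control and 411.7 to 479.6 CPM in KLF4, where 4 of 7 were called higher, and to 92.41 to 165.2 CPM in the other factor libraries. Endothelial markers summed to 122.2 to 128.5 CPM in Control, 157.9 to 162.3 CPM in KLF4 and 60.03 to 87.69 CPM elsewhere. Of these 6 markers, 3 were called higher in each of OSR1, OSR2, KLF2 and KLF4, and 0 in EGR1. In KLF2 2 were called lower, and in each other factor group 1 was. The endothelial sum thus does not give the direction of its single markers. Blood markers summed to 4.745 to 5.299 CPM in Control, 9.473 to 10.76 CPM in KLF2 and 22.67 to 28.48 CPM in KLF4, with HBA1 at 0 in every library, and to 2.092 to 2.929 CPM elsewhere. Markers of glia, neurons and pigment cells summed to 29.73 to 29.88 CPM in Control and 30.31 to 56.33 CPM in the factor libraries. Of these 8 markers, 1 to 4 were called higher and 2 lower in each factor group. Of 6 macrophage markers, 2 or 3 were called higher and 0 to 2 lower. Of 8 skeletal muscle markers tested, 2 to 4 were called higher and 1 to 5 lower. These sums, too, do not give the direction of single markers.

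Of the 9 genes, 6 had a lower level in each of the 10 factor libraries than in either Control library: ATF4, ATF3, DDIT3, CHAC1, ASNS and PSAT1. The levels of SESN2 were higher in all 10, and those of TRIB3 and PHGDH, taken over all 10, overlapped with Control. Of all features tested, 21.6% lay below both Control libraries in all 10 factor libraries and 25.5% lay above both, and since the genes were picked for their levels, nothing is read from their count. All 5 comparisons use the same 2 Control libraries, so a deviation of Control enters each of them. In these bulk samples, fewer cells of a type and less RNA per cell cannot be told apart. All levels below are CPM with scaled library sizes and are not divided by gene length, so they are compared between libraries and not between genes.

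**Figure D1:**
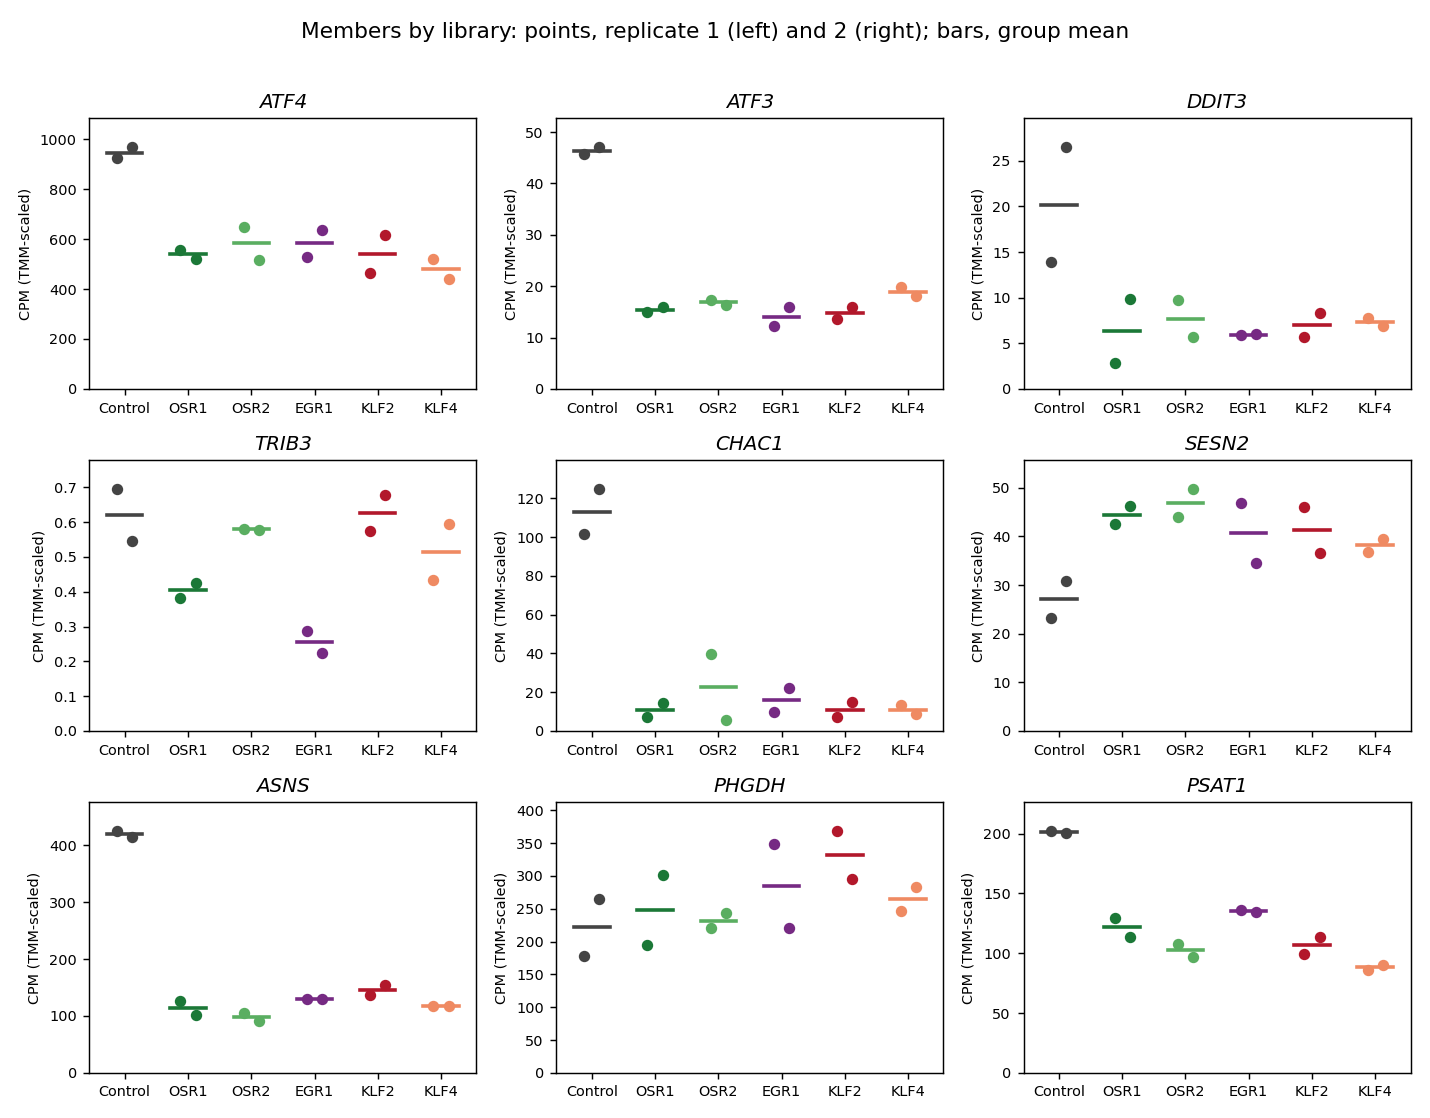
Level of each of the 9 genes in the 12 libraries, in CPM on axes that start at 0, with a point per library and a bar at the mean of each group of 2. The 2 Control points of ATF4, ATF3, DDIT3, CHAC1, ASNS and PSAT1 sit above all 10 factor points, those of SESN2 sit below them, and for TRIB3 and PHGDH 1 Control point lies among the factor points and the other beyond them.

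ATF4, the bZIP transcription factor at the centre of the response, was at 923.8 and 967.4 CPM in Control. The OSR1 libraries were at 558.3 and 520 CPM, OSR2 at 647.2 and 518 CPM, and EGR1 at 530.3 and 636 CPM. The KLF2 libraries were at 462.5 and 615.1 CPM and KLF4 at 520.8 and 441.8 CPM. The factor libraries therefore kept between 46.7% and 68.4% of the mean Control level, 945.6 ± 30.9 CPM (SD, n = 2). The log2 fold changes against Control ran from -0.70 in OSR2 and EGR1 to -0.97 in KLF4, each with a standard error of 0.16. KLF4 was lowest, at 481.3 ± 55.8 CPM (SD, n = 2), and both of its libraries lay below both EGR1 libraries, while every other pair of factor groups overlapped. ATF4 is controlled largely through its translation, and mRNA counts do not measure its protein.

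ATF3, a bZIP factor that ATF4 induces and that in turn can repress stress genes, was at 45.8 and 47.01 CPM in Control. Its factor libraries ran from 12.15 CPM in an EGR1 library to 19.83 CPM in a KLF4 library, with a median of 15.94 CPM. The KLF4 libraries, at 19.83 and 18.08 CPM, were above every other factor library of ATF3. The next in order, OSR2 at 17.4 and 16.32 CPM, overlapped with none of the EGR1, KLF2 and OSR1 libraries, which ran from 12.15 to 15.96 CPM and overlapped with each other. The log2 fold change against Control was -1.29 ± 0.13 (SE) in KLF4 and -1.72 ± 0.14 (SE) in EGR1.

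DDIT3, also called CHOP, is the bZIP factor through which prolonged stress leads to cell death. Its Control libraries lay far apart, at 13.9 and 26.46 CPM, and so did its OSR1 libraries, at 2.847 and 9.894 CPM. The other factor libraries were between 5.69 and 9.721 CPM, so no factor library reached the lower Control. The fold changes were correspondingly uncertain, with log2 values of -1.39 to -1.77 and standard errors of 0.55 to 0.56. Single libraries decided their size: the log2 fold change in OSR1 was -1.66 with all libraries, -1.03 without the first OSR1 library and -2.82 without the second. Without the second Control library the DDIT3 log2 fold change was -1.12 in OSR1, -0.85 in OSR2, -0.99 in KLF2, -0.92 in KLF4 and -1.23 in EGR1.

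TRIB3, a pseudokinase that ATF4 and CHOP induce in mammals and that restrains ATF4, was barely covered, with 20 to 62 counts per library. Control was at 0.694 and 0.5448 CPM. The KLF2 libraries at 0.5732 and 0.6792 CPM and the OSR2 libraries at 0.5811 and 0.5788 CPM lay inside the Control range. The EGR1 libraries were the lowest, at 0.2871 and 0.2237 CPM, followed by OSR1 at 0.383 and 0.4257 CPM, while the KLF4 libraries, at 0.4329 and 0.5946 CPM, overlapped with Control. For TRIB3, EGR1 thus lay below all 8 other factor libraries. The log2 fold change against Control was -1.26 ± 0.27 (SE) in EGR1, -0.61 ± 0.25 (SE) in OSR1 and 0.02 ± 0.24 (SE) in KLF2.

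ASNS makes asparagine from aspartate and glutamine and is a standard readout of the response. Its Control libraries were at 424.1 and 413.9 CPM. The factor libraries ran from 91.38 CPM, in an OSR2 library, to 154.3 CPM, in a KLF2 library, or 21.8% to 36.8% of the Control mean. On the log2 scale ASNS changed by -1.53 in KLF2 to -2.10 in OSR2 with a standard error of 0.11 throughout, and no factor library came near Control. In order of mean level the factor groups were KLF2 at 145.1 ± 13 CPM, EGR1 at 129.8 ± 0.369 CPM, KLF4 at 118.2 ± 0.0141 CPM, OSR1 at 114.5 ± 17.2 CPM and OSR2 at 97.88 ± 9.2 CPM (SD, n = 2 each). KLF2 was above EGR1 and EGR1 above KLF4 in every library, while OSR1, at 126.6 and 102.3 CPM, overlapped with both KLF4 and OSR2.

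The serine pathway starts from a glycolytic intermediate and runs through PHGDH, PSAT1 and PSPH in that order, and 2 of its enzymes are among the 9 genes. PSAT1, the middle step, was at 201.8 and 200.5 CPM in Control and between 86.28 CPM, in a KLF4 library, and 136.3 CPM, in an EGR1 library, elsewhere. EGR1, at 136.3 and 134.7 CPM, was above every other factor library, and KLF4, at 86.28 and 90.51 CPM, below every other. Against Control, log2 fold changes of PSAT1 were -0.57 in EGR1, -0.73 in OSR1, -0.92 in KLF2, -0.98 in OSR2 and -1.19 in KLF4, each with a standard error of 0.09.

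PHGDH, the first step, did not share that pattern. Its Control libraries were at 178.5 and 265.6 CPM, and the factor libraries ran from 195.5 CPM to 367.9 CPM with a median of 265.3 CPM. Of the 10 factor libraries 5 lay above both Control libraries and none below both. KLF2, at 367.9 and 295.3 CPM, was the only group with each of its libraries above both Control libraries. Fold changes of 0.06 in OSR2 to 0.58 in KLF2 on the log2 scale had a standard error of 0.29. Their sign changed for OSR1, OSR2 and EGR1 when single libraries were left out: without the first Control library they were -0.10 in OSR1 and -0.19 in OSR2, without the second OSR1 library -0.18, and without the first EGR1 library -0.01.

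CHAC1 breaks down glutathione in the cytosol and is among the genes most strongly induced through ATF4 in mammalian cells. It was at 101.8 and 124.6 CPM in Control. The OSR1 libraries were at 7.215 and 14.64 CPM, OSR2 at 39.68 and 5.398 CPM, and EGR1 at 9.723 and 22.02 CPM. The KLF2 libraries were at 7.16 and 14.67 CPM and KLF4 at 13.14 and 8.888 CPM, so even the highest factor library stayed far under Control. The Control mean was 9.91 times the factor median, against 3.42 times for ASNS, 3.13 times for DDIT3, 2.91 times for ATF3, 1.82 times for PSAT1 and 1.8 times for ATF4. Log2 fold changes of CHAC1 were -2.33 to -3.38 with standard errors of 0.84 to 0.89. The smallest, in OSR2, rests on libraries at 39.68 and 5.398 CPM, and became -4.39 without the first OSR2 library and -1.51 without the second. The 5 factor groups overlapped, so their order carries no difference.

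SESN2, a sestrin that restrains mTORC1 when leucine is short and that ATF4 and p53 induce in mammals, was the one gene of the 9 with a higher level in every factor library. It was at 23.16 and 30.92 CPM in Control. The factor libraries ran from 34.46 CPM, in an EGR1 library, to 49.67 CPM, in an OSR2 library, and their median was 1.6 times the Control mean. The log2 fold changes were 0.50 in KLF4, 0.59 in EGR1, 0.61 in KLF2, 0.71 in OSR1 and 0.79 in OSR2, each with a standard error of 0.18. They were 0.35 in EGR1 without its first library, 0.40 in KLF2 without its first library and 0.31 in KLF4 without the first Control library.

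**Figure D2:**
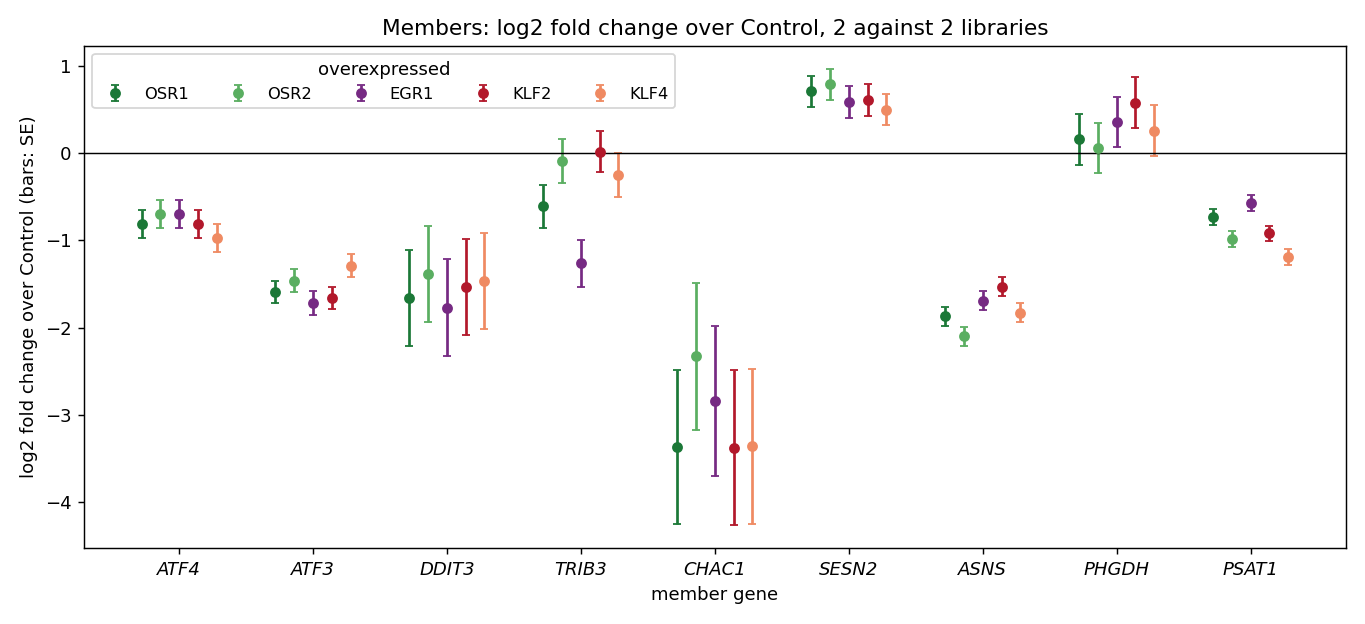
Log2 fold change of each of the 9 genes against Control in the 5 factor groups, with bars of 1 standard error from the fit of all 12 libraries. CHAC1 is farthest below 0 with the widest bars, ASNS is below 0 with narrow bars in all 5 groups, SESN2 is above 0 in all 5, and TRIB3 differs between groups.

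Over the 9 genes the median log2 fold change was -1.26 in EGR1, -0.81 in OSR1, -0.98 in OSR2, -0.92 in KLF2 and -1.19 in KLF4. Over all features tested it was 0.01, 0.05, 0.04, 0.02 and -0.01 in the same order. Since the 9 genes were picked for their levels, nothing is read from this contrast. The EGR1 median is the value of TRIB3, the barely covered gene, so the order of the groups carries no difference. In EGR1 the cartilage marker sum lay around that of Control. There ASNS was at 129.6 and 130.1 CPM, CHAC1 at 9.723 and 22.02 CPM and PSAT1 at 136.3 and 134.7 CPM. These PSAT1 levels were above every other factor library. In OSR2, with the lowest cartilage sums, ASNS was at 104.4 and 91.38 CPM, CHAC1 at 39.68 and 5.398 CPM and PSAT1 at 107.7 and 96.85 CPM. What part cartilage content had in these levels was not tested. The lower depth and higher retroviral share of Control went with the levels of all 7 genes that stood apart, and so did its 5.8S ribosomal RNA, at 831.5 to 996.1 CPM against 1296 to 5565 CPM in the factor libraries. The part of these in the result was not tested.

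Between the factor families, which uses no Control library, the 9 genes differed less. KLF (KLF2 and KLF4) against OSR (OSR1 and OSR2) gave log2 differences between -0.52 (CHAC1) and 0.31 (ASNS and PHGDH), and the libraries of both families overlapped for all 9 genes. EGR1 was above all 4 OSR libraries for ASNS and PSAT1 and below them for TRIB3, with log2 differences of 0.29 ± 0.09 (SE), 0.28 ± 0.08 (SE) and -0.91 ± 0.23 (SE). Against the 4 KLF libraries EGR1 was above for PSAT1, by 0.48 ± 0.08 (SE), and below for TRIB3, by -1.15 ± 0.23 (SE), both on the log2 scale.

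The replicates of a group also differed in these genes. CHAC1 had a median absolute log2 difference of 1.03 between the replicates of a group, against 0.11 for the median of 11135 genes with at least 5 CPM on average, and only 2 of those genes had a larger one. DDIT3 differed by 0.65, with 38 genes above it, and PHGDH by 0.45, with 228 above it. ATF3 and ASNS were ordinary in this respect, with 5266 and 5500 genes above them.

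The direction of these differences was shared by some of the genes. In the log2 difference of the second minus the first replicate, CHAC1 gave positive values for Control (0.29), OSR1 (1.02), EGR1 (1.18) and KLF2 (1.03) and negative ones for OSR2 (-2.87) and KLF4 (-0.56). For the same 6 groups in that order, DDIT3 gave 0.93, 1.79, 0.03, 0.54, -0.77 and -0.17, and ATF3 0.04, 0.09, 0.39, 0.23, -0.09 and -0.13. ATF3, DDIT3 and CHAC1 therefore moved the same way in 6 of 6 groups, and ATF4 joined each of them in 5 of 6. SESN2 and PHGDH also moved together in 6 of 6, and each moved opposite to ASNS in 6 of 6, although some ASNS differences were close to 0. Among all pairs of the 11135 genes, 3.47% moved together in all 6 groups and 3.09% moved opposite in all 6.

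**Figure D3:**
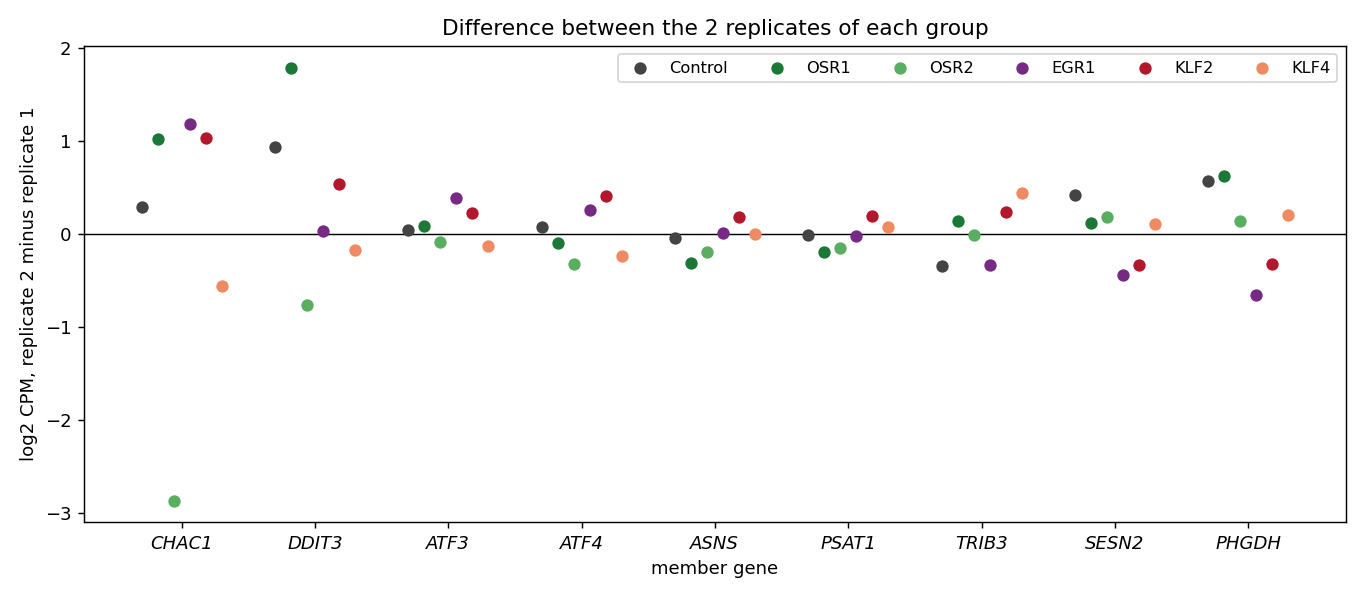
Log2 difference of replicate 2 minus replicate 1 in each of the 6 groups, for each of the 9 genes. ATF3, DDIT3 and CHAC1 share their sign in every group, with OSR2 and KLF4 negative, and the largest difference is that of CHAC1 in OSR2, at -2.87.

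A wider set of genes from this and linked pathways, called pathway genes here, was tested without the 9. It includes mTORC1 and GATOR components, glutathione genes and NFE2L2 targets, immediate early genes and p53 targets. Those lists held more genes called higher than lower in each comparison with Control, and the other lists more called lower. Shares pooled over all lists therefore mix opposite directions. Of 201 genes in 11 lists, 188 were tested with edgeR's quasi-likelihood test at a Benjamini-Hochberg adjusted p under 0.05. In OSR1 124 of them, or 66.0%, passed against 51% of all features: 72 were lower and 52 higher, or 38.3% and 27.7%, against 22.7% and 28.4% of all features. In OSR2 128 passed (68.1% against 51.9%), with 38.3% lower against 23% and 29.8% higher against 28.9%. In EGR1 122 passed (64.9% against 45.1%), with 36.2% lower against 20.5% and 28.7% higher against 24.6%. In KLF2 127 passed (67.6% against 51.6%), with 36.2% lower against 23.5% and 31.4% higher against 28.1%. In KLF4 130 passed (69.1% against 54.2%), with 36.7% lower against 25.5% and 32.4% higher against 28.7%. In each comparison, then, the share called lower stood further above that of all features than the share called higher did. The lists were written with earlier results of these data known, so this excess is not an independent result. The features compared were also not matched to the list genes in level. Of the 188 genes 56 were lower and 41 higher in all 5 comparisons, where 11.5% and 16.5% of all features were. The following paragraphs give such counts for single lists, and the same shares of all features, 11.5% lower and 16.5% higher, apply to each.

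**Figure D4:**
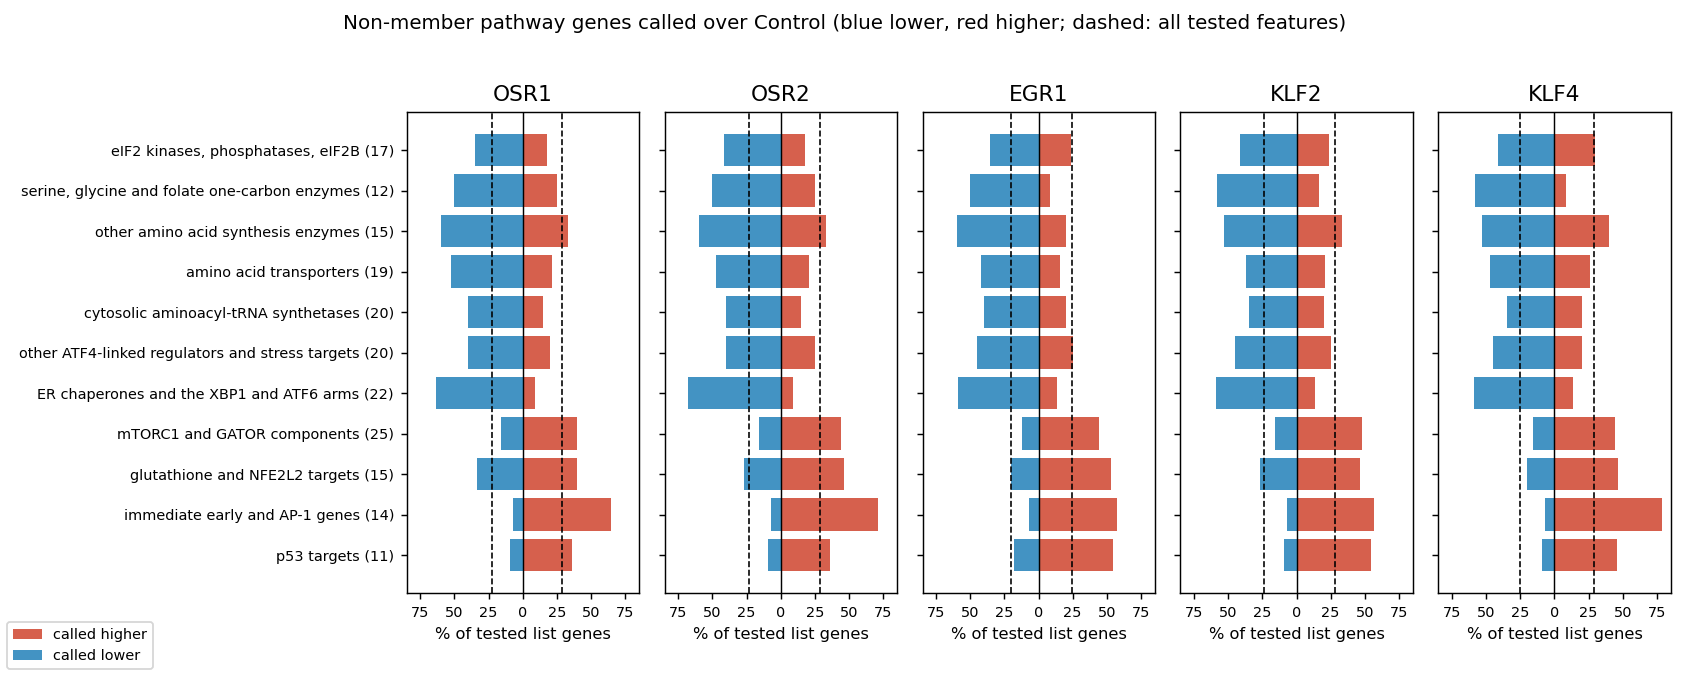
Share of tested genes in each of the 11 pathway lists called lower (blue) or higher (red) than Control, by factor group. Dashed lines mark the shares of all tested features. Of the ER chaperones 59.1% to 68.2% were lower and 9.09% to 13.6% higher, depending on the group. Of the other amino acid synthesis enzymes 53.3% to 60% were lower and 20% to 40% higher. Of the one-carbon enzymes 50% to 58.3% were lower and 8.33% to 25% higher. Of the mTORC1 and GATOR components 12% to 16% were lower and 40% to 48% higher. Of the immediate early genes 7.14% were lower in each group and 57.1% to 78.6% higher.

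Among 12 enzymes of serine, glycine and folate one-carbon metabolism, 6 were lower in all 5 comparisons and none was higher in all 5. PSPH, the last step of serine synthesis, was at 53.89 and 59.73 CPM in Control and at 7.914 to 15.55 CPM in the factor libraries. Its log2 fold change ran from -1.99 in EGR1 (adjusted p = 5.4e-05) to -2.72 in OSR2 (adjusted p = 1.5e-06). The serine pathway was therefore uneven: PSPH fell in each comparison and PSAT1 was lower in every factor library. PHGDH overlapped with Control except in KLF2, where both libraries lay above both Control libraries. Of the mitochondrial folate enzymes, MTHFD1L, MTHFD2, MTHFD2L and ALDH1L2 were lower in all 5 comparisons. MTHFD2 fell in all 5, with log2 fold changes from -1.36 in OSR2 (adjusted p = 0.00036) to -1.78 in KLF4 (adjusted p = 8.7e-05). ALDH1L2 did too, from -1.43 in OSR1 (adjusted p = 1.2e-05) to -1.87 in EGR1 (adjusted p = 1.9e-05). SHMT2, which passes a carbon from serine to folate in mitochondria, passed in none of the 5, with log2 fold changes from 0.10 in OSR2 (adjusted p = 0.81) to 0.71 in KLF4 (adjusted p = 0.091). Its replicates lay apart, at 57.21 and 80.76 CPM in Control and 57.3 and 110 CPM in OSR1. An unchanged level of SHMT2 is therefore not shown. AMT, of the glycine cleavage system, rose in KLF2 by 0.87 (adjusted p = 0.011) and in KLF4 by 0.92 (adjusted p = 0.0079). Both AMT calls were lost without the first Control library (adjusted p = 0.075 and 0.058), and the KLF2 call also without the second KLF2 library (adjusted p = 0.071). MTHFD2L, SHMT2 and AMT were named after their values were seen.

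Of 15 other enzymes of amino acid synthesis, 8 were lower in all 5 comparisons and 3 were higher. ALDH18A1, which starts proline synthesis from glutamate, was at 1305 and 1265 CPM in Control and 320.9 to 436.6 CPM in the factor libraries, and fell in all 5, from -1.58 in EGR1 to -1.92 in OSR2 on the log2 scale (adjusted p = 1.9e-05 and 6.1e-07). GPT2, the mitochondrial alanine aminotransferase, fell in all 5, from -1.84 in EGR1 (adjusted p = 1.9e-05) to -2.19 in KLF2 (adjusted p = 3e-06). CBS and CTH make cysteine from homocysteine by way of cystathionine. CBS fell in all 5, from -0.92 in EGR1 (adjusted p = 4.2e-05) to -1.98 in OSR2 (adjusted p = 1.1e-07). CTH, named after its values were seen, fell likewise, from -0.82 in EGR1 (adjusted p = 0.00019) to -1.33 in OSR2 (adjusted p = 1.9e-06).

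GLUL, glutamine synthetase, went the other way. It was at 13.52 and 12.76 CPM in Control and rose in every comparison, to a mean of 104.9 ± 2.51 CPM in KLF4, 94.41 ± 8.51 CPM in KLF2, 74.49 ± 7 CPM in EGR1, 54.51 ± 1.62 CPM in OSR2 and 50.71 ± 1.14 CPM in OSR1 (SD, n = 2 each). The log2 fold changes were 1.95 in OSR1 (adjusted p = 6.1e-07) to 3.00 in KLF4 (adjusted p = 7.6e-08). Glutamine is the nitrogen donor of the ASNS reaction, and the culture medium was supplemented with it in all groups.

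Amino acid transporters fell more often than they rose, with 5 of 19 lower and 2 higher in all 5 comparisons. SLC7A11, the cystine importer, was at 89.64 and 87.36 CPM in Control and fell to 13.96 and 17.18 CPM in KLF4, a log2 fold change of -2.51 (adjusted p = 7.7e-07). In OSR2, where it fell least, the log2 change of SLC7A11 was -1.35 (adjusted p = 1.2e-05). SLC7A1, an importer of cationic amino acids, fell in all 5, from -0.73 in EGR1 (adjusted p = 0.00093) to -1.28 in OSR2 (adjusted p = 1.3e-05).

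The cytosolic aminoacyl-tRNA synthetases, which charge tRNAs, split. Of 20, CARS, EPRS, GARS, IARS, TARS, WARS and YARS were lower in all 5 comparisons, and FARSA, MARS and VARS were higher. IARS, for isoleucine, had log2 fold changes from -0.60 in KLF2 (adjusted p = 5.8e-05) to -0.94 in KLF4 (adjusted p = 2.8e-06). GARS, for glycine, had log2 fold changes from -0.46 in KLF2 (adjusted p = 0.00036) to -0.76 in OSR2 (adjusted p = 1.1e-05). MARS, for methionine, was at 53.77 and 74 CPM in Control and rose in all 5, by 0.96 in OSR1 (adjusted p = 0.012) to 1.17 in KLF2 (adjusted p = 0.0047). Its call was lost without the first Control library in OSR1 (adjusted p = 0.089), OSR2 (adjusted p = 0.059) and EGR1 (adjusted p = 0.053), without the second OSR1 library (adjusted p = 0.052) and without the first EGR1 library (adjusted p = 0.052). CARS, WARS, YARS, FARSA, MARS and VARS were named after their values were seen.

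Upstream of ATF4, the list of eIF2 alpha kinases, phosphatase subunits and eIF2 and eIF2B subunits had 5 of 17 genes lower and 3 higher in all 5 comparisons, none of them a kinase. EIF2AK3 (PERK), the kinase that senses the endoplasmic reticulum, had log2 fold changes of -0.14 to 0.02 and passed the test in none of the 5 comparisons, with adjusted p from 0.19 to 0.89. EIF2AK1, the haem-regulated kinase, likewise passed in none, with adjusted p from 0.054 to 0.75. EIF2AK4 (GCN2), the kinase that senses uncharged tRNA, fell in 4 comparisons, from -0.44 in KLF2 (adjusted p = 0.0027) to -0.56 in OSR1 (adjusted p = 0.00082), while in EGR1 its log2 fold change was -0.22 (adjusted p = 0.077). EIF2AK2 (PKR), the kinase that senses double-stranded RNA, fell in EGR1 by 0.58 on the log2 scale (adjusted p = 0.01), in KLF2 (adjusted p = 0.0031) and in KLF4 (adjusted p = 0.0021), and did not pass in OSR1 (adjusted p = 0.064) or OSR2 (adjusted p = 0.12). The EGR1 call of EIF2AK2 was lost without the first Control library (adjusted p = 0.082) and without the first EGR1 library (adjusted p = 0.092). EIF2AK1, EIF2AK2 and EIF2AK3 were named after their values were seen. The kinases act through their activity, which mRNA counts do not measure.

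Among 20 other regulators and stress targets linked to ATF4, 6 were lower and 4 higher in all 5 comparisons. CEBPG, a bZIP partner of ATF4, was at 92.79 and 97.63 CPM in Control and 38.94 to 47.42 CPM in the factor libraries, and fell in all 5, from -1.07 in OSR2 to -1.25 in KLF4 on the log2 scale (adjusted p = 2.6e-06 and 1.6e-06). STC2, a secreted glycoprotein induced by stress, fell in all 5, from -0.85 in EGR1 (adjusted p = 5.1e-05) to -2.09 in OSR2 (adjusted p = 7e-08). TRIB1, a relative of TRIB3, rose by 1.59 in OSR2 (adjusted p = 6.4e-06) and by 0.48 in EGR1 (adjusted p = 0.012). That EGR1 call of TRIB1 was lost without the first Control library (adjusted p = 0.078) and without the first EGR1 library (adjusted p = 0.061). TXNIP, which restrains glucose uptake, rose by 1.65 in EGR1 (adjusted p = 0.0057) to 2.15 in OSR1 (adjusted p = 0.0014), and its EGR1 call was lost without the first Control library (adjusted p = 0.053).

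Of 22 genes of the ER chaperone list, which includes the XBP1 and ATF6 arms of the unfolded protein response, 13 were lower and 2 higher in all 5 comparisons. The 2 higher genes were ATF6 itself and SYVN1, both named after their values were seen. ATF6 was at 31.59 and 33.77 CPM in Control and 40.1 to 53.85 CPM in the factor libraries. HSPA5 (BiP), the main chaperone of the endoplasmic reticulum, was at 1335 and 1405 CPM in Control and 627.8 to 822 CPM in the factor libraries. It fell in all 5, from -0.80 in EGR1 (adjusted p = 0.00026) to -1.10 in KLF4 (adjusted p = 1.1e-05). XBP1, the transcription factor activated by IRE1 (ERN1), fell in all 5, from -0.97 in EGR1 (adjusted p = 0.00015) to -1.26 in OSR2 (adjusted p = 6.4e-06) on the log2 scale.

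The mTORC1 and GATOR list, to which SESN2 signals, leaned to the higher side, with 9 of 25 higher and 2 lower in all 5 comparisons. NPRL2, a GATOR1 subunit, was at 15.47 and 16.74 CPM in Control and 23.44 to 30.17 CPM in the factor libraries. In the list of glutathione genes and NFE2L2 targets 6 of 15 genes were higher and 2 lower in all 5. The higher ones were GSS, GSR, NQO1, HMOX1, SRXN1 and SQSTM1, and the lower ones GGCT and GGT5. Of these, GSS, NQO1, HMOX1, SRXN1 and GGCT were named after their values were seen. Among immediate early genes 7 of 14 were higher and 1 lower in all 5, and among p53 targets 3 of 11 and 1. SESN1, the p53-induced sestrin, was at 47.83 and 50.08 CPM in Control and 58.99 to 71.92 CPM in the factor libraries. It rose by 0.27 in KLF4 (adjusted p = 0.022) to 0.44 in OSR1 (adjusted p = 0.0021). Its KLF4 call was lost without either Control library (adjusted p = 0.12 and 0.052) and without either KLF4 library (adjusted p = 0.082 and 0.081). MDM2, the p53 target that was lower in all 5, marks p53 for degradation. It was at 213.5 to 224.3 CPM in Control and 155.1 to 194.9 CPM in the factor libraries. The MDM2 call in KLF4, at a log2 fold change of -0.19, was lost without either Control or either KLF4 library. In EGR1, at -0.25, it was lost without the first Control and without the first EGR1 library.

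**Figure D5:**
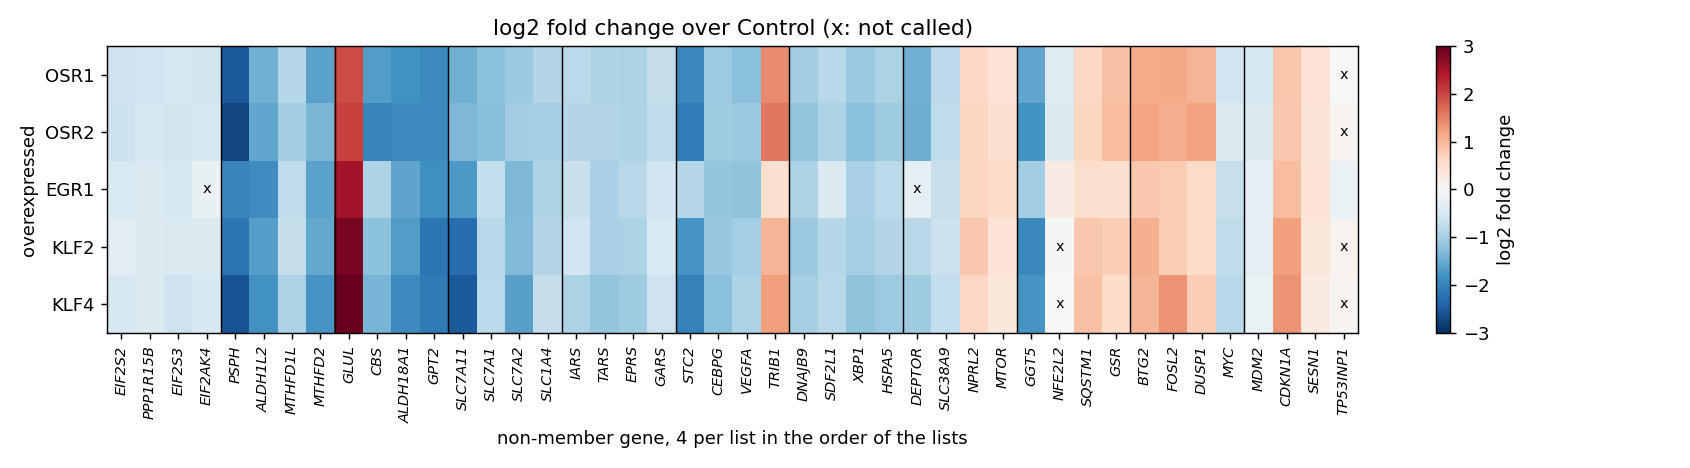
Log2 fold change against Control of named genes of the pathway lists in the 5 factor groups, as a colour from lower (blue) to higher (red). GLUL reaches 3.00 in KLF4, PSPH is lowest at -2.72 in OSR2, and STC2 and CBS are nearer to 0 in EGR1 than in the other groups.

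Between families, 58 of the 188 pathway genes differed for KLF against OSR (30.9%, against 33% of all features), 41 for EGR1 against OSR (21.8% against 17.7%) and 26 for EGR1 against KLF (13.8% against 14.4%). For KLF against OSR 32 were higher and 26 lower, where 15.6% and 17.4% of all features were. For EGR1 against OSR 28 were higher and 13 lower, where 8.88% and 8.79% of all features were, and for EGR1 against KLF 17 and 9, where 8.07% and 6.31% were. Leaving out single libraries lowered these counts by more than 1.5 times. For KLF against OSR that held without the first OSR2 library and without either KLF4 library. For EGR1 against OSR it held without either EGR1 library, and for EGR1 against KLF without the second EGR1 or the first KLF4 library. In each of these cases fewer of all features passed as well. No difference between families is therefore read from the counts. GLUL was higher in KLF than in OSR by 0.92 on the log2 scale (adjusted p = 1.3e-06), and CBS by 0.52 (adjusted p = 2.4e-05). SLC7A11 was higher in EGR1 than in KLF by 0.67 (adjusted p = 0.0013). STC2 was higher in EGR1 than in OSR by 1.17 (adjusted p = 5.9e-07) and than in KLF by 1.05 (adjusted p = 3.2e-06). DEPTOR, an inhibitor of mTOR, fell in OSR1, OSR2, KLF2 and KLF4 but not past the test in EGR1 (adjusted p = 0.15), and was higher in EGR1 than in OSR by 1.15 (adjusted p = 0.00017).

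Across the 12 libraries the genes whose log2 CPM was most like that of a member were mostly outside the pathway lists. They were sought among 9946 to 9953 genes with at least 5 CPM, and the libraries share the separation of Control from the rest. The lists hold at most 188 of these genes, so most nearest genes would lie outside them by number alone. Among the genes nearest to each member, OAT, QARS and SARS were in the lists. Whether list genes were more frequent there than among all genes searched was not tested. ATF4 was most like FBXO4 (Pearson r = 0.988), ASNS most like EIF5B (r = 0.994), CHAC1 most like INTU (r = 0.972), PSAT1 most like OAT (r = 0.978), SESN2 most like RFXANK (r = 0.976), DDIT3 most like BBS9 (r = 0.906), and TRIB3 most like PLA2R1 (r = 0.905). For the same pairs over the 10 factor libraries alone, r was 0.961 with FBXO4, 0.932 with EIF5B, 0.933 with INTU and 0.921 with OAT. It was 0.916 with RFXANK, 0.768 with BBS9 and 0.908 with PLA2R1. PHGDH was most like RCC1 (r = 0.928), followed by QARS and SARS (r = 0.893 each). Over the 10 factor libraries alone, these r were 0.901, 0.87 and 0.94. SARS, the tRNA synthetase of serine, rose by 0.69 in EGR1 (adjusted p = 0.019), by 0.70 in KLF2 (adjusted p = 0.015) and by 0.53 in KLF4 (adjusted p = 0.042). Without the first Control library both calls of SARS were lost (adjusted p = 0.12 and 0.1), as they were without the first EGR1 library (adjusted p = 0.13) and without the first KLF2 library (adjusted p = 0.12).

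Among the 9 genes themselves much of the likeness lay in that separation. ATF4 and ASNS had r = 0.86 over 12 libraries and 0.13 over the 10 factor libraries, and ATF3 and ASNS had 0.89 and -0.35. ATF4 and CHAC1 had 0.93 and 0.72, and DDIT3 and CHAC1 0.85 and 0.61. The mean profile of the 9 genes was most like OARD1 (r = 0.952) and, among the pathway lists, MTHFD2 (r = 0.941), and least like FAXC (r = -0.947). Over the 10 factor libraries these r were nearer to 0, at 0.635 for OARD1, 0.57 for MTHFD2 and -0.576 for FAXC.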

How the data were processed

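The authors deposited raw counts per gene, whole numbers in 1 file per library. Per the submitters' processing notes, TopHat2, SAMtools, featureCounts, DESeq2 and the build galGal4 were used. Versions, annotation, counting strand and filters are not given in those sources, so genes that overlap or share sequence are uncertain. Per the labels' protocols the libraries were stranded and read as pairs.

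The analysis used edgeR 4.0.16 and limma 3.58.1 under R 4.3.3. Features were kept by filterByExpr (minimum count 10) and scaled by TMM. A robust quasi-likelihood fit took all 12 libraries together, each group as a coefficient (6 residual degrees of freedom, median prior 4.6, biological coefficient of variation 0.128), and its script was tested on simulated data. Tests are two-sided F tests, and a gene passed below 0.05 after Benjamini-Hochberg adjustment across 18979 features. Standard errors are the absolute log2 fold change divided by the square root of F, and r uses log2 CPM with a prior count of 2. Families are means of group coefficients.

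The 9 genes and the lists were chosen with earlier results of these data known, and the lists hold none of the 9. Named genes are, from each list, the 4 with the smallest overall p and at least 5 CPM, the 2 largest rises and falls per comparison, and, for each of the 9, the 3 most alike, and others are said to be named after their values were seen. A RefSeq table (GRCg7b) served for names only and held 7 of the 9 symbols (not DDIT3 and TRIB3). Alternatives were DESeq2 1.42.0, median-of-ratios factors, library totals, no filter, the compared groups alone, a replicate block, thinned counts and leaving out each library. Figures were drawn with matplotlib 3.10.9.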

Additional observations from a re-analysis of the deposited data

How the results depend on the processing

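The log2 fold changes of the 9 genes moved by less than the replicate spread under 801 of 810 combinations of gene, comparison and setting, and PHGDH and TRIB3 were the 2 genes that changed sign under any. The number of the 9 genes below both Control libraries in all 10 factor libraries was 6 with every setting except without the second Control library, where TRIB3 joined and it was 7. The number of pathway genes passing the test against Control ran, with 1 library left out, from 96 to 129 in OSR1, 98 to 131 in OSR2, 84 to 127 in EGR1, 99 to 132 in KLF2 and 110 to 136 in KLF4, each lowest without the first Control library. For the families it ran from 31 to 59 for KLF against OSR, 14 to 50 for EGR1 against OSR and 16 to 32 for EGR1 against KLF. Without the first Control library fewer of all features passed as well, in each of the 5 comparisons with Control. The libraries whose absence gave the lowest family counts likewise lowered the number over all features. With 1 library left in a group, that library is assumed to vary like the other groups. Replicate numbers are shared across groups, and the labels do not say whether they pair the samples. Over 15 pairs of groups the correlation of same-numbered deviations ran from -0.29 to 0.22, with 4 over 0.1. These values cannot decide whether same-numbered libraries share an origin, since a weak shared effect could give them too. With the replicate number as a block, 119, 125, 120, 124 and 128 pathway genes passed in the 5 comparisons with Control, and 46, 39 and 22 between families. Over all features 9195, 9386, 8080, 9328 and 9907 passed in the same order, and 5689, 3028 and 2472 between families. Depth limits TRIB3 alone among the 9 genes, and 2 libraries a group limit all values.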
